A study of Mus musculus with 24 samples.

Results

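Tmem176a, Tmem176b, Ms4a6b, Ms4a6c, Ms4a6d and Ms4a7 are mouse genes for tetraspan membrane proteins of immune and other cells. They were followed as a named set of 6 genes among 18193 measured in mouse forebrain, through the 13 of 45037 array probe sets that the annotation assigns to only 1 of them. Where a gene had several, the brightest one on average gave its main value. The genes were chosen by a readout of these same arrays, the genotype difference at day 150, so values of day 150 are described here with no p-value for the 6 genes, whereas days 70 and 80 were tested.

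The samples were forebrains of TgCRND8 mice, which carry the APPSwe/Ind transgene, that is, APP with the mutations called Swedish and Indiana, and of their non-transgenic littermates as controls. Mice were 70, 80 or 150 days old, no group received a treatment, and each of the 6 groups held 4 mice with 1 Affymetrix array per mouse. The labels do not name the promoter that drives the transgene. In what follows, arrays of a group are given in the order of their replicate numbers 1 to 4, and all levels and differences are on the log2 scale of the deposited signals.

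Proteins of the MS4A family, of which the B cell antigen CD20 is the best known, cross the membrane as bundles of helices and sit near receptors and ion fluxes. TMEM176A and TMEM176B are related to them, form cation channels of intracellular membranes in myeloid and other cells, and in mice Tmem176b restrains the inflammasome. Ms4a6b, Ms4a6c, Ms4a6d and Ms4a7 are expressed in mouse macrophages and related cells, Ms4a7 in particular in macrophages at the borders of the brain; in humans the MS4A gene cluster carries variants associated with Alzheimer disease and with soluble TREM2.

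The 2 Tmem176 genes neighbour each other on chromosome 6 and point away from each other, which is why their start regions are shown. In RefSeq annotation on GRCm38.p6, the first Tmem176a window, chr6:48841233-48841532 on the plus strand, and the second Tmem176b window, chr6:48841325-48841624 on the minus strand, have their start sites 109 bases apart and share 208 bases (chr6:48841325-48841532). Each window runs from 250 bases before to 50 bases after an annotated start, and these are the pair of windows with the closest starts. Capitals mark 2 short motifs on either strand, AGGAAGT, a core bound by ETS factors, and GAGGAA, a core bound by the myeloid factor PU.1.
Tmem176a: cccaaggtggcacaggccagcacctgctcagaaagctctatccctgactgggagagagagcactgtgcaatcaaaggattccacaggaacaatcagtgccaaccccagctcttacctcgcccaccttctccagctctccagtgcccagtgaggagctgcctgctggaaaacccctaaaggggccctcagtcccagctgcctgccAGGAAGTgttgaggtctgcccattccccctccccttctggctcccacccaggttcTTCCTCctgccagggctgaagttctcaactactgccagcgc
Tmem176b: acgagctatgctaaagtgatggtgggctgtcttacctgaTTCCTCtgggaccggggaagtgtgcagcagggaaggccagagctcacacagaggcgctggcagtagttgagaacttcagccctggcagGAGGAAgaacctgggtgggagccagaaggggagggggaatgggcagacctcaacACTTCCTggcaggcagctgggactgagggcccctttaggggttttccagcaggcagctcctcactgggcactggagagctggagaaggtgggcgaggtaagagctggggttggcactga

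AGGAAGT occurred once in the shared stretch, 46 bases before the Tmem176a start and 69 bases before the Tmem176b start, so it is the same bases read from either side. GAGGAA occurred once in the Tmem176a window and at 2 places in the Tmem176b window. Of 32851 mouse start windows of the same length, 9.35% held AGGAAGT and 28.3% held GAGGAA, so both are common letters. TGACTCA, the AP-1 motif, stood in 5.2% and CACGTG, an E-box, in 7.15% of all windows, and neither was found in the 9 windows of the 5 genes that have one. AGGAAGT and GAGGAA can overlap in sequence but did not in these windows.

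The Ms4a genes lie in the family's cluster on chromosome 19, in the order Ms4a7, Ms4a6c, Ms4a6b and Ms4a6d with other genes between them. RefSeq windows were found for 5 of the 6 genes; Ms4a6d is named only. The windows of Ms4a6b and Ms4a6c held an identical run of 48 bases, at chr19:11518441-11518488 and chr19:11469319-11469366, both on the plus strand of GRCm38.p6, shown as the longest stretch that windows of these Ms4a genes share. It lies before both annotated starts. It includes AGGAAGT, here in lower case.
Ms4a6b and Ms4a6c: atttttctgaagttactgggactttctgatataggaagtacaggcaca

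Over their whole windows Ms4a6b and Ms4a6c were identical at 192 of 375 aligned positions (51.2%), and the other window pairs among these genes at 45% to 47.4%, with no shared run over 9 bases.

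Tmem176b was the brightest of the 6 by rank among probe sets: its single probe set (1418004_a_at) averaged 8.47 and stood at percentile 93.2 of the 45037. The main probe set of Tmem176a (1423909_at) averaged 6.87, at percentile 80.6. Signals of different probe sets do not compare amounts of RNA, but both were above the median of their array, 4.28 to 4.37, on all 24 arrays. The main probe sets of Ms4a6c (1450234_at), Ms4a6b (1418826_at), Ms4a7 (1424754_at) and Ms4a6d (1419599_s_at) averaged 3.81, 3.47, 3.42 and 3.32, at percentiles 40.9, 32.7, 31.2 and 28.1. These 4 lay below the array's median on all 24 arrays. Ms4a6b, Ms4a7 and Ms4a6d were near the lower quartile, 3.15 to 3.32, and Ms4a6c was above it on all arrays. A change of the Ms4a genes could be compressed or missed at such dim signals.

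Tmem176b, whose protein restrains inflammasome activation in mouse macrophages, was higher in TgCRND8 forebrain at day 150. Its signal was 8.64, 8.67, 8.70 and 8.74 in TgCRND8 mice, against 8.28, 8.17, 8.28 and 8.31 in controls of day 150. Each TgCRND8 array was higher than every control array, and neither group spread widely. The means were 8.69 ± 0.043 in TgCRND8 and 8.26 ± 0.064 in control mice (SD, n = 4 each), a difference of 0.43 (standard error 0.0791), or 1.35-fold. Because forebrain was measured in bulk, more cells that carry a transcript and more of it per cell cannot be told apart.

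Tmem176a, its neighbour and partner in the same membranes, differed by the same amount. It read 6.92, 7.09, 7.36 and 7.26 in TgCRND8 mice, against 6.61, 6.79, 6.71 and 6.82 in controls of day 150. Again the groups did not overlap, but the lowest TgCRND8 array was close to the highest control array. The means were 7.16 ± 0.19 in TgCRND8 and 6.73 ± 0.097 in control mice (SD, n = 4 each), and the difference was 0.43 (standard error 0.104), or 1.34-fold.

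**Figure D1:**
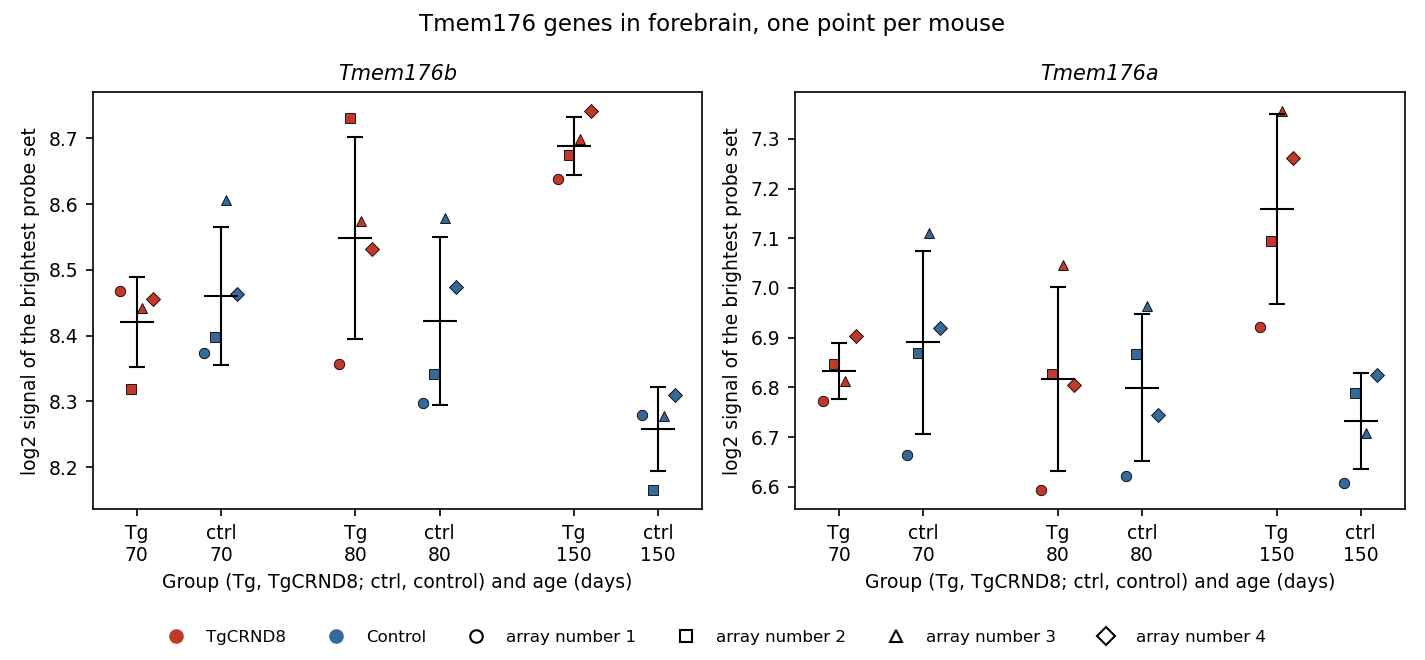
Log2 signal of Tmem176b (left) and Tmem176a (right) on each of 24 arrays, by genotype and age in days. Symbols give the array number, horizontal bars the group mean and error bars the SD (n = 4). At day 150 the TgCRND8 arrays of Tmem176b lie between 8.64 and 8.74, above all controls of that age.

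The other probe sets of Tmem176a showed smaller differences, with overlapping groups. The second one, 1441811_x_at, whose suffix in Affymetrix naming marks probes that may also match other transcripts, read 6.08, 5.93, 6.37 and 6.18 in TgCRND8 mice of day 150. In controls of day 150 it read 6.09, 6.02, 6.25 and 5.92, so the groups overlapped, with a difference of 0.07 (standard error 0.102). The dimmest, 1425603_at, differed by 0.14 (standard error 0.106), with overlapping groups as well. With the mean of the 3 probe sets in place of the brightest, the Tmem176a difference at day 150 was 0.21.

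No Ms4a gene of the set had separate groups at day 150. Ms4a6c was lower on average, with 3.58, 3.84, 3.93 and 3.69 in TgCRND8 mice, against 4.14, 3.97, 4.00 and 3.64 in controls. The ranges overlapped, and the difference was -0.18 (standard error 0.113); its second probe set, 1457725_at, differed by 0.09 in the other direction. Ms4a6b differed by 0.05 (standard error 0.109), Ms4a7 by -0.01 (0.104) and Ms4a6d by -0.004 (0.108).

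Ms4a6d, a macrophage gene, read 3.31, 3.30, 3.66 and 3.08 in TgCRND8 mice of day 150, against 3.28, 3.16, 3.59 and 3.34 in controls. Array 3 was the highest in both genotypes. Ms4a7, a gene of border macrophages, read 3.36, 3.44, 3.78 and 3.41 in TgCRND8 mice, against 3.45, 3.69, 3.55 and 3.33 in controls, and Ms4a6b read 3.48, 3.52, 3.49 and 3.69 in TgCRND8 mice, against 3.29, 3.40, 3.74 and 3.54 in controls. For Ms4a7 the 2 genotypes covered much the same range, and for Ms4a6b the TgCRND8 arrays lay inside the wider range of the controls.

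Of the 6 genes, 1 (Tmem176b) was among the 22 genes past an adjusted p of 0.05 by limma at day 150, which are 0.121% of all genes tested. Groups that did not overlap were seen for 2 of the 6, against 3% of all genes. As the set was drawn with this contrast known, these counts, and those under other settings, describe the choice and support nothing. With the replicate number as a block, which lowers the standard error to 0.0740 for Tmem176a and to 0.0741 for Tmem176b, 31 genes passed (0.17%), both Tmem176 genes among them. After quantile normalization, without control array 2 or without TgCRND8 array 4, 0 of the 6 genes passed at day 150, while the Tmem176b difference stayed between 0.40 and 0.45 under every alternative run.

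**Figure D2:**
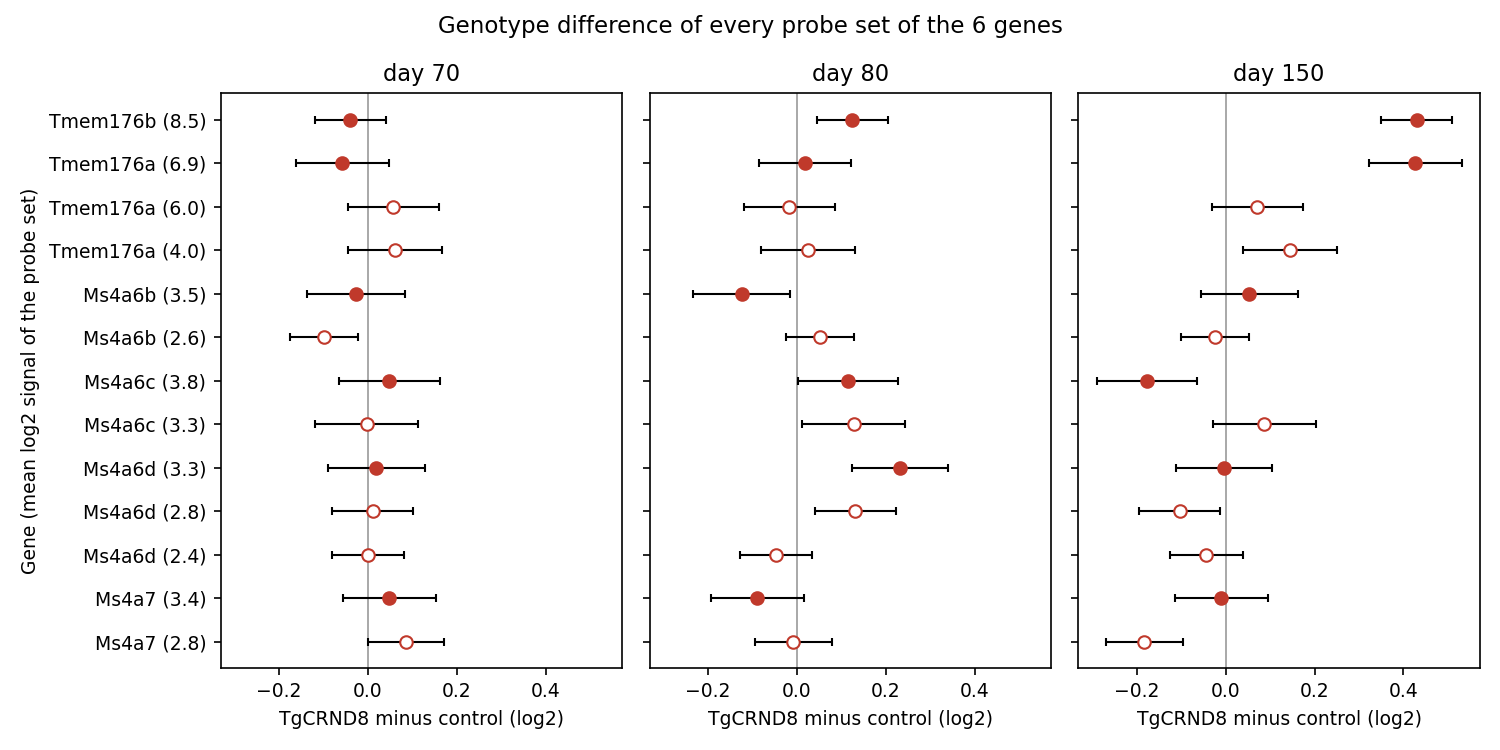
TgCRND8 minus control difference (log2) of each of the 13 probe sets at days 70, 80 and 150, with its standard error (n = 4 per group). Filled points are main probe sets and open points the others; numbers beside gene names are mean log2 signals. At day 150 only the Tmem176b probe set and the brightest Tmem176a probe set lie at 0.43.

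At day 70 none of the 6 genes passed the test between genotypes. Tmem176b read 8.47, 8.32, 8.44 and 8.46 in TgCRND8 mice, against 8.37, 8.40, 8.61 and 8.46 in controls, and Tmem176a read 6.77, 6.85, 6.81 and 6.90 in TgCRND8 mice, against 6.66, 6.87, 7.11 and 6.92 in controls. In both genes the TgCRND8 arrays lay within or close to the range of the controls. The differences were -0.04 for Tmem176b (95% interval -0.20 to 0.12) and -0.06 for Tmem176a (-0.27 to 0.16), and those of the 4 Ms4a genes ran from -0.03 (Ms4a6b, -0.25 to 0.20) to 0.05 (Ms4a6c, -0.18 to 0.28). By limma with Benjamini-Hochberg adjustment over all genes, 0 of the 6 passed (adjusted p = 0.9997 for each). In that comparison 0 of 18193 genes passed (0%), and 591 (3.25%) had an unadjusted p under 0.05, with 0 of the 6 genes among them.

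At day 80 no gene passed either, but Ms4a6d had separate groups. Its main probe set read 3.36, 3.68, 3.51 and 3.34 in TgCRND8 mice, against 3.11, 3.25, 3.34 and 3.27 in controls. All 4 TgCRND8 arrays were above all 4 controls, but the lowest TgCRND8 array cleared the highest control by less than the last printed digit. The difference was 0.23 (standard error 0.108, 95% interval 0.01 to 0.45), with an unadjusted p of 0.0419 and an adjusted p of 0.9996 by limma. Separate groups with the TgCRND8 arrays higher were seen in 0.846% of all genes at this age.

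The other probe sets of Ms4a6d differed by 0.13 (1419598_at) and -0.05 (1449539_at) at day 80, both with overlapping groups. The suffix of the main one, 1419599_s_at, marks probes shared by more than 1 transcript in Affymetrix naming. At day 70 the main probe set of Ms4a6d differed by 0.02 and at day 150 by -0.004.

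Blood and myeloid markers were read on the same day 80 arrays, and 0 of them passed by limma. Of 8 monocyte and neutrophil markers 4 were higher and 4 lower in TgCRND8 mice, with a median of 0.02 and values from -0.14 to 0.57. Of 4 red blood cell genes 3 were higher, with a median of 0.10 and values from -0.05 to 1.04. All but the gene at 1.04 averaged below or within the lower quartiles of the arrays (3.15 to 3.32). A change of those genes could be missed, so this count and median say little about blood. Lists of other cells were higher as well, such as choroid plexus (6 of 8 genes, median 0.15) and T and NK cells (8 of 9, 0.10). In contrast, 1 of 6 oligodendrocyte genes and 1 of 8 meningeal fibroblast genes were higher. Per array, the monocyte and neutrophil list averaged 4.13 to 4.33 in TgCRND8 mice and 4.02 to 4.27 in controls, and the red blood cell list 3.57 to 4.17 in TgCRND8 mice and 3.50 to 3.78 in controls. The part of such cells in the Ms4a6d difference was not tested.

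Tmem176b at day 80 read 8.36, 8.73, 8.57 and 8.53 in TgCRND8 mice, against 8.30, 8.34, 8.58 and 8.47 in controls. TgCRND8 array 2 stood above every control of that age, and the rest of the groups overlapped. The difference was 0.13 (95% interval -0.04 to 0.29; adjusted p = 0.9996 by limma). Tmem176a read 6.59, 6.83, 7.05 and 6.81 in TgCRND8 mice, against 6.62, 6.87, 6.96 and 6.74 in controls, and differed by 0.02 (95% interval -0.20 to 0.23). In both genotypes its lowest array was number 1 and its highest number 3.

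Among the remaining Ms4a genes at day 80, Ms4a6c differed by 0.12 (95% interval -0.12 to 0.35), Ms4a7 by -0.09 (-0.30 to 0.13) and Ms4a6b by -0.12 (-0.35 to 0.10), each with overlapping groups. Of all genes, 0% passed at day 80 by limma and 685 (3.77%) had an unadjusted p under 0.05, Ms4a6d being the 1 gene of the set among them. Taking days 70 and 80 together, with 8 arrays per genotype, the difference was 0.04 for Tmem176b (95% interval -0.07 to 0.16) and -0.02 for Tmem176a (-0.17 to 0.13), and for Ms4a6d it was 0.13 (-0.03 to 0.28). None of the 6 passed by limma (lowest adjusted p = 0.9989), nor did any other gene (0%, with 767 genes, 4.22%, at an unadjusted p under 0.05). The change of the genotype difference between these ages was 0.16 for Tmem176b (95% interval -0.07 to 0.39) and 0.21 for Ms4a6d (-0.10 to 0.53). Again 0 of the 6 and 0% of all genes passed by limma (adjusted p = 0.9998 for the 6), 481 genes (2.64%) having an unadjusted p under 0.05.

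**Figure D3:**
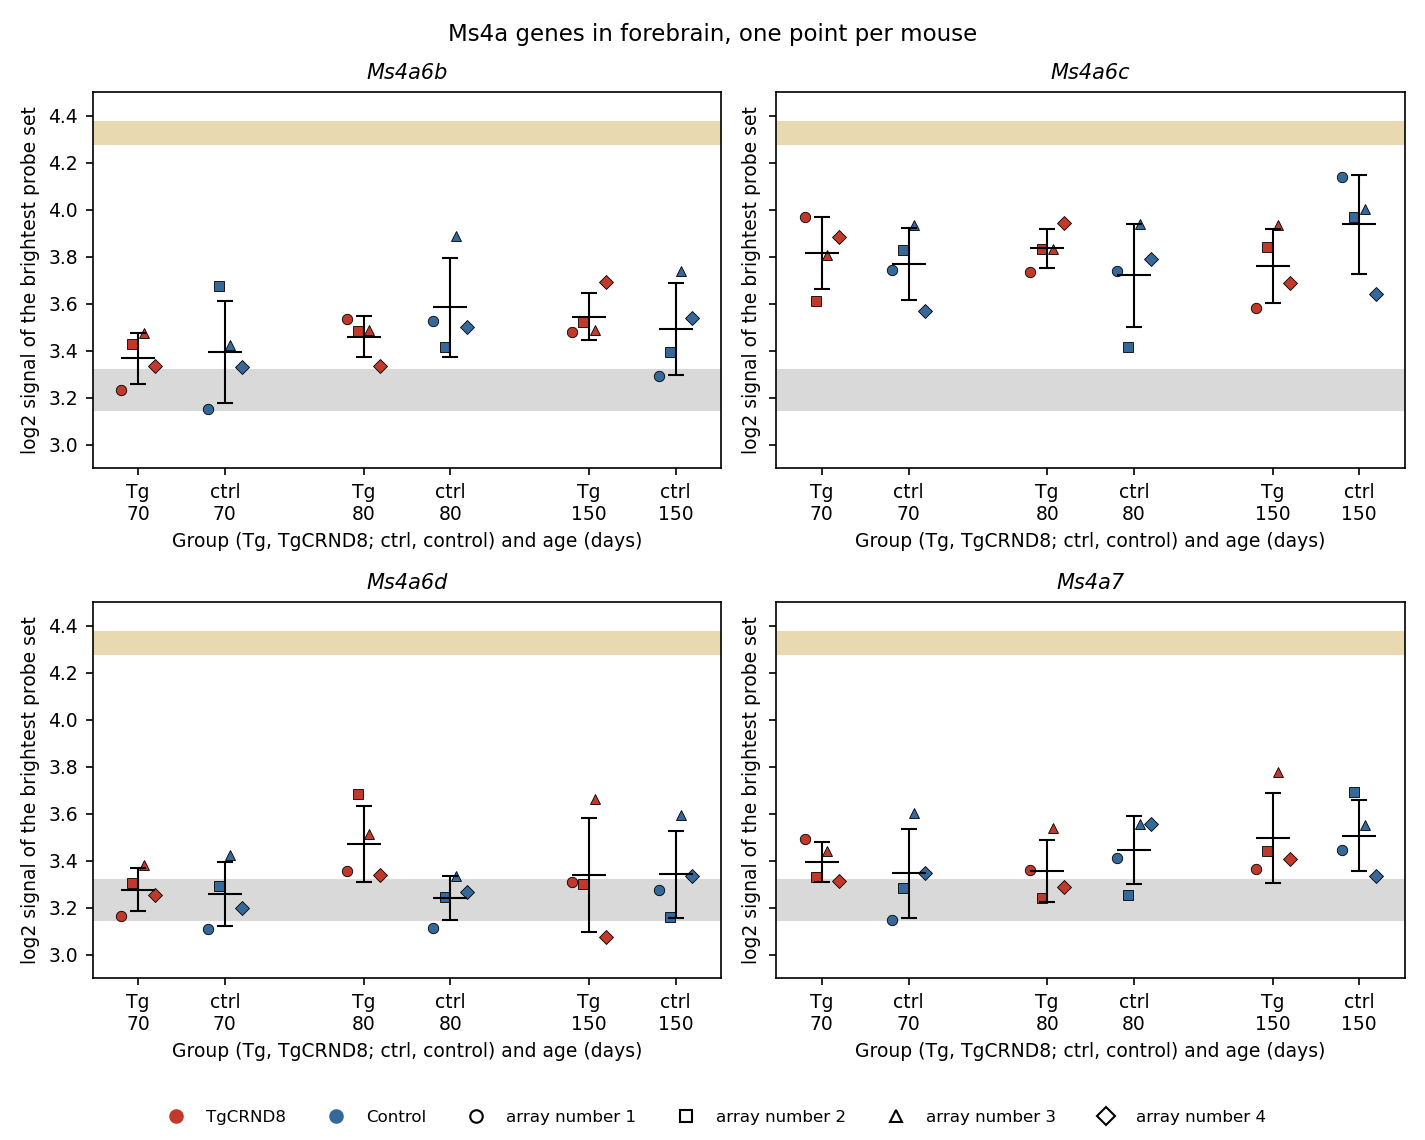
Log2 signal of Ms4a6b, Ms4a6c, Ms4a6d and Ms4a7 on each of 24 arrays, by genotype and age in days, with the group mean and SD (n = 4). Bands show the range over arrays of the lower quartile (3.15 to 3.32) and of the median (4.28 to 4.37) of all probe sets. All points lie below the medians, and for Ms4a6d at day 80 the TgCRND8 points lie just above those of the controls.

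With age, the Tmem176b signal ran in opposite directions in the 2 genotypes, which is given as description because it uses the day 150 arrays. In TgCRND8 mice its mean was 8.42 at day 70, 8.55 at day 80 and 8.69 at day 150. In controls it was 8.46 at day 70, 8.42 at day 80 and 8.26 at day 150. Day 150 minus day 70 was thus 0.27 in TgCRND8 mice and -0.20 in controls (standard error 0.0791 each), and in both genotypes the arrays of the 2 ages did not overlap. Between these ages 2.49% of all genes had separate arrays in TgCRND8 mice, and 4.58% in controls. Against day 70, the TgCRND8 arrays of day 150 were higher and the control arrays lower. A choice of genes by the day 150 genotype difference favours both, so nothing is read from this split.

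Marker lists moved in both directions between controls of day 70 and controls of day 150. Border macrophage markers (9 of 12 genes, median 0.10) and monocyte and neutrophil markers (7 of 8, 0.11) were mostly higher at day 150. So were, among others, B cell markers (5 of 5, 0.12) and T and NK cell markers (8 of 9, 0.04). Lists that were lower included those of microglia and oligodendrocytes. Of 14 microglia markers 11 were lower, 0 passed by limma, and the median was -0.07; their mean per array was 5.76 to 5.86 in controls of day 150 and 5.80 to 5.95 in controls of day 70. All 6 oligodendrocyte genes were lower, with a median of -0.28, and their mean per array was 9.69 to 9.84 in controls of day 150 and 10.07 to 10.11 in controls of day 70. Mog and Mal, genes of myelin proteins, fell past the threshold by limma, in a comparison where 4 genes (0.022%) passed in all. The part of these cells in the Tmem176b levels of controls was not tested.

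Ordered by level, Tmem176b was lowest in controls of day 150, then came TgCRND8 mice of day 70, controls of day 80, controls of day 70 and TgCRND8 mice of day 80, and TgCRND8 mice of day 150 were highest. The 4 groups in the middle overlapped. Controls of day 150 lay below all 4 TgCRND8 arrays of day 70, by a narrow margin at 1 array. They overlapped with controls of day 80 through array 1 of that age, at 8.30 against 8.31 on control array 4 of day 150. TgCRND8 mice of days 150 and 80 overlapped through array 2 of day 80.

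Tmem176a had the same lowest and highest groups. Its means were 6.83, 6.82 and 7.16 in TgCRND8 mice of days 70, 80 and 150, and 6.89, 6.80 and 6.73 in controls of those ages. Day 150 minus day 70 was 0.32 in TgCRND8 mice, without overlap, and -0.16 in controls, with overlap (standard error 0.104 each). Ordered by level, each group overlapped with its neighbours, since 1 control of day 70 (array 3, at 7.11) reached into the TgCRND8 range of day 150. The genotype difference at day 150 exceeded the mean of those at days 70 and 80 by 0.45 for Tmem176a (standard error 0.127) and by 0.39 for Tmem176b (0.0968).

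For the Ms4a genes the means of the 6 groups stayed within narrow bands. Ms4a6c was highest in controls of day 150 (3.94) and lowest in controls of day 80 (3.72). Ms4a6b had means from 3.37 in TgCRND8 mice of day 70 to 3.58 in controls of day 80. Its TgCRND8 arrays of day 150 all lay above those of day 70, by 0.18 on average (standard error 0.109). However, the lowest array of day 150 (3.480) only just cleared the highest of day 70 (3.477). Ms4a6d ranged from 3.24 in controls of day 80 to 3.47 in TgCRND8 mice of day 80, and Ms4a7 from 3.35 in controls of day 70 to 3.51 in controls of day 150. Apart from the 2 sets of arrays named for Ms4a6b and for Ms4a6d at day 80, no pair of groups of 1 genotype or 1 age was separate in these 4 genes.

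The step between days 70 and 80, which was tested, gave 0 of the 6 genes past the threshold by limma in either genotype. In TgCRND8 mice the day 80 minus day 70 difference was 0.13 for Tmem176b (95% interval -0.04 to 0.29) and 0.20 for Ms4a6d (-0.03 to 0.42), whose adjusted p of 0.873 was the lowest of the 6. In controls the largest was 0.19 for Ms4a6b (-0.04 to 0.41; adjusted p = 0.9999). Of all genes 0% passed in each step, while 1040 (5.72%) in TgCRND8 mice and 590 (3.24%) in controls had an unadjusted p under 0.05.

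The replicate numbers moved with these signals. Tmem176a was below its group mean on array 1 in all 6 groups, by 0.18 on average, as was Ms4a6d, by 0.10. Array 3 was above the group mean in all 6 groups for Tmem176b, Ms4a6d and Ms4a7, by 0.06, 0.16 and 0.15 on average. What the replicate numbers share is not given in the labels. Their part in the results was not tested beyond the fit with the number as a block.

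Across the 24 arrays, Tmem176a and Tmem176b had the highest correlation of any pair of the set, with Pearson's r of 0.74 and Spearman's rho of 0.72. After each array's group mean was taken off, r was 0.57, and without the TgCRND8 arrays of day 150 it was 0.57. These are descriptions, since the arrays share groups and replicate numbers. The next pair was Ms4a6c and Ms4a7, with r of 0.52 over all arrays and, after removal of group means, 0.58, slightly above that of the Tmem176 pair. Between a Tmem176 gene and an Ms4a gene r lay between -0.06 and 0.39 over all arrays, and between 0.15 and 0.52 after removal of group means.

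The genes outside the set whose pattern over the 24 arrays was most like that of Tmem176a were C1qb (r = 0.93), which encodes a chain of complement C1q made by microglia, S100a6 (0.90), a calcium-binding protein gene, and Cd53 (0.85), a tetraspanin gene of leukocytes. C1qb read 7.66, 7.69, 7.98 and 7.87 in TgCRND8 mice of day 150, against 7.15, 7.22, 7.26 and 7.38 in controls. Without overlap between genotypes at day 150, it differed by 0.55, and by 0.03 at day 80 and -0.01 at day 70. S100a6 differed by 0.58 and Cd53 by 0.57 at day 150. With the TgCRND8 arrays of day 150 left out, r with Tmem176a was 0.86 for C1qb, 0.81 for S100a6 and 0.75 for Cd53. The 20 arrays left also served to pick these genes, so that r is no separate check.

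For Tmem176b the nearest genes were Acacb (r = 0.81), an acetyl-CoA carboxylase, Tyrobp (0.81), the signalling adaptor of Trem2 in microglia, and Psme1 (0.78), a proteasome activator subunit. Tyrobp read 8.14, 8.27, 8.74 and 8.15 in TgCRND8 mice of day 150, against 6.80, 7.09, 7.16 and 6.99 in controls. Its difference of 1.31 at day 150 was the larger one, against 0.41 for Acacb and 0.25 for Psme1. Without the TgCRND8 arrays of day 150, r with Tmem176b was 0.85 for Acacb, 0.70 for Tyrobp and 0.79 for Psme1. Here too the arrays left had served to pick the genes.

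**Figure D4:**
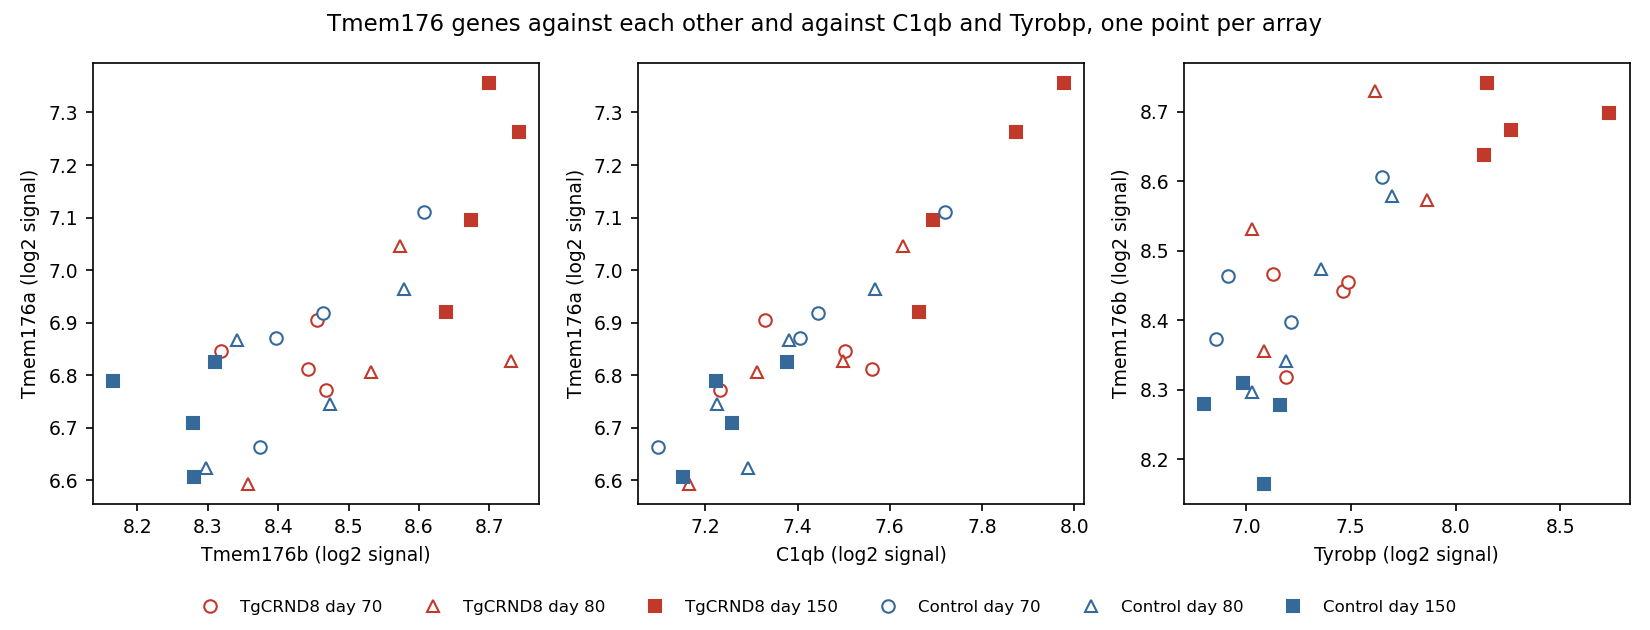
Log2 signal of Tmem176a against Tmem176b (left) and against C1qb (middle), and of Tmem176b against Tyrobp (right), 1 point per array, 24 arrays. Colours mark genotype and shapes age. Most TgCRND8 arrays of day 150 sit at the upper right of each panel, and Pearson's r is 0.74, 0.93 and 0.81 from left to right.

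The genes most like the Ms4a members were of many kinds. Ms4a6c came closest to Akr1c13 (r = 0.88), an aldo-keto reductase, and Creb3l3 (0.85), a transcription factor known from liver, followed by Gm31437 (0.83). Ms4a6d came closest to Palld (0.76), an actin-binding protein gene, Slc9a4 (0.76) and Fxyd3 (0.75), and Ms4a7 to Nnmt (0.73), a methyltransferase, Uts2 (0.70) and Zcchc24 (0.69). For Ms4a6b the closest were Prdm6 (0.66), Hsdl2 (0.65) and Gm3604 (0.64). All were picked for the highest r among all genes outside the set. Akr1c13, Gm31437, Slc9a4, Nnmt, Uts2 and Gm3604 averaged 2.78, 3.03, 2.80, 2.94, 3.09 and 2.59, below the lower quartile of the arrays (3.15 to 3.32). Zcchc24 (8.19), Hsdl2 (6.45) and Creb3l3 (5.41) were brighter. When deviations from the group means were used instead, 2 of the 18 genes named for the 6 members, Akr1c13 and Creb3l3, were among the nearest 3 again.

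Of the other Ms4a family genes, 11 of 16 listed were measured, and 0 of 11 passed by limma at days 70, 80 and 150. At day 150, 2 were higher and 9 lower in TgCRND8 mice, with differences from -0.19 (Ms4a8a) to 0.16 (Ms4a10) and a median of -0.08, against a median of 0.0004 over all genes. At day 80, 9 were higher, with a range of -0.10 (Ms4a4d) to 0.25 (Ms4a3), and at day 70, 6 were higher, with a range of -0.09 (Ms4a3) to 0.13 (Ms4a1, which encodes CD20). Of the 11, Ms4a15 was the 1 gene with a signal above the middle of all probe sets, at 6.18. Ms4a2 and Ms4a3, genes of mast cells and of granulocyte precursors, differed by -0.08 and -0.15 at day 150, Ms4a4b by -0.05, Ms4a4c by -0.06, Ms4a4d by -0.09, Ms4a18 by -0.08 and Ms4a13 by 0.10. Outside the list, Ms4a19 and Ms4a20 were measured too and differed by -0.07 and 0.01 at day 150, neither passing by limma.

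Marker genes of the cells that can carry these transcripts were measured beside them. Of 14 microglia markers, 11 were higher in TgCRND8 mice at day 150 and 0 passed, with a median difference of 0.15; Cx3cr1 and P2ry12, receptors of resting microglia, differed by 0.10 and 0.11. The mean of these markers per array was 5.89 to 6.08 in TgCRND8 mice and 5.76 to 5.86 in controls of day 150, so all 4 TgCRND8 arrays lay above the controls. Markers of microglia around plaques were all higher, 14 of 14, with a median of 0.35, and 5 passed: Cst7 (1.59), a cystatin gene, Tyrobp (1.31), Cd68 (0.999), a lysosomal protein gene, Trem2 (0.62), the lipid receptor, and Cd9 (0.46), a tetraspanin gene, with adjusted p between 5.49e-10 and 0.0326 by limma. Their mean per array was 6.45 to 6.61 in TgCRND8 mice and 6.03 to 6.14 in controls. Of all genes, 0.121% passed by limma at day 150. As the lists were written with earlier results of these data known, their counts at day 150 are description only. The part of microglia, around plaques or not, in the Tmem176 differences was not tested.

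Of 12 markers of border macrophages, the cells in which Ms4a7 is best known, 4 were higher and 0 passed by limma at day 150, with a median of -0.05. The list ran from -0.23 to 0.18, and Mrc1 and Cd163, scavenger receptor genes that stand first in it, differed by 0.18 and 0.15, above the 8 markers that were lower. Their mean per array was 3.68 to 3.74 in TgCRND8 mice and 3.66 to 3.78 in controls of day 150, below the array medians. The lists for monocytes and neutrophils (4 of 8 higher, median -0.02), dendritic cells (3 of 8, -0.05), B cells (1 of 5, -0.07) and T and NK cells (2 of 9, -0.10) likewise held 0 genes past the threshold by limma at day 150.

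Partners of the proteins were examined by name as well. Among genes of the inflammasome, which Tmem176b restrains in mice, 5 of 10 were higher, 0 passed, and the median was -0.03 at day 150; the sensor gene Nlrp3 differed by 0.08 and the adaptor gene Pycard by 0.36 (standard error 0.135, adjusted p = 0.9995 by limma). In the Trem2 signalling list, 2 of 9 passed, Trem2 and Tyrobp, with a median of 0.04. For MHC class II, in whose antigen presentation Tmem176 proteins take part in mouse dendritic cells, 5 of 8 were higher with 0 passed and a median of 0.01; Cd74, the invariant chain, differed by 0.36 and H2-Aa by 0.02. Of 10 astrocyte genes only Gfap passed, by 1.42. These calls too come from lists written with earlier results known, beside 0.121% of all genes. The lists for choroid plexus, ependymal, meningeal fibroblast, endothelial, excitatory neuron, oligodendrocyte and red blood cell genes held 0 genes past the threshold by limma at day 150, with medians from -0.05 to 0.04. At days 70 and 80, 0 genes of any of the 19 lists passed by limma.

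**Figure D5:**
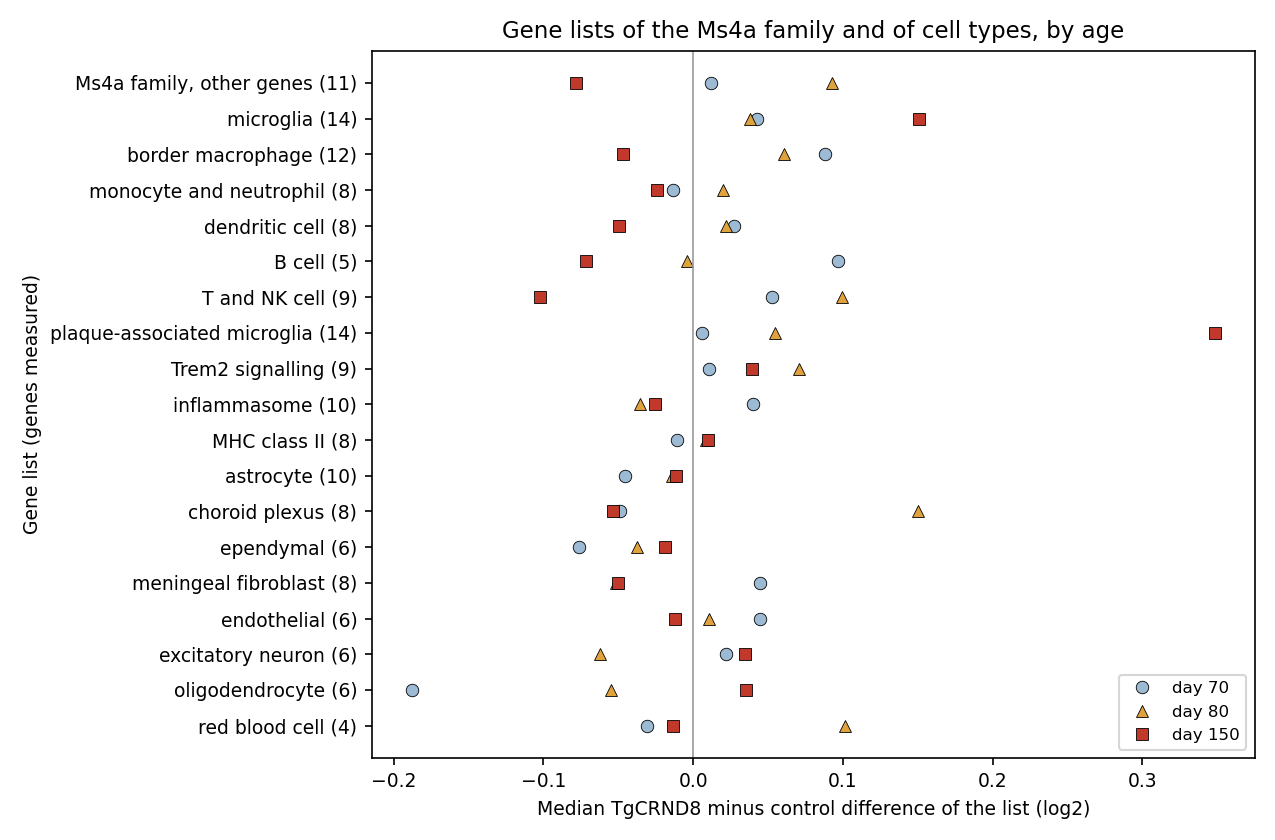
Median TgCRND8 minus control difference (log2) of each gene list at days 70, 80 and 150, with the number of genes measured in parentheses. At day 150 the plaque-associated microglia list stands at 0.35 and the microglia list at 0.15, whereas the list of other Ms4a family genes stands at -0.08.

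Across the whole series, correlations between arrays were 0.988 to 0.997, and the neuronal markers averaged 9.61 to 10.1 per array. Microglia markers averaged 5.76 to 6.08 per array. Low Xist signal, a sign of male tissue, was seen on 5 arrays, 1 control of day 70, 2 TgCRND8 and 2 controls of day 80, and on 0 arrays of day 150. The labels name the replicates as biological, 1 mouse each.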

How the data were processed

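Forebrain RNA of 24 mice was labelled with biotin and hybridised to Affymetrix mouse arrays, per the labels' protocols. The deposited values run from 2.07 to 14.2 and were taken as log2 signals; how the authors normalized them is not stated in the sources used here. The 64 control probe sets were left out; of the other 45037, 34945 carried 1 symbol, 932 several and 9160 none in the platform annotation. The brightest probe set with 1 symbol stood for each of 18193 genes. The number of arrays, 4 per group, limits precision.

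One limma fit held 6 group means over 24 arrays (18 residual and 7.47 prior degrees of freedom), with Benjamini-Hochberg adjustment over all genes and a threshold of 0.05. Named genes were all 6 members, the 3 most similar genes of each by Pearson's r, all measured Ms4a genes, and from 19 lists the genes that passed or the first 2; lists without names are given by counts. The members and lists were chosen with earlier results of these data known. Same-numbered TgCRND8 and control arrays of day 150 deviated together (r of 0.137 to 0.256 in all 4 pairs). Those of day 70 (lowest r -0.321) and day 80 (lowest r -0.231) did not in every pair. The replicate block was fitted to all 24 arrays, with each number given the same effect in all 6 groups.

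The fit was tested on simulated arrays. Alternatives were median centring, quantile normalization, all probe sets singly, their mean per gene, no genes from the dimmest 40%, trend and robust settings, array weights, the replicate block, Xist as covariate, only the arrays compared, a threshold of 0.10 and leaving out each array in turn. Start windows came from RefSeq (GRCm38.p6); windows were aligned globally with Biopython. The tools were limma 3.58.1 in R 4.3.3, and Biopython 1.88 and matplotlib 3.10.9 in Python 3.11.15.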

Additional observations from a re-analysis of the deposited data

Results flagged for a closer look

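Over the 13 probe sets and 6 groups, 78 sets of 4 arrays were examined, and in 3 of them 1 array stood apart from the other 3 by more than Dixon's 95% critical value for 4 arrays. Chance alone flags about 1 in 20 such sets, which is more than were seen. A dim Tmem176a probe set (1425603_at) read 4.02 on control array 3 of day 70, against 3.88 to 3.90 on the other controls of that age. The second Ms4a6c probe set (1457725_at) read 3.46 on the same array, against 3.18 to 3.20. The Ms4a6d probe set 1419598_at read 2.88 on control array 2 of day 80, against 2.74 to 2.76 on the other controls of that age. None of the 3 is a main probe set.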

How the results depend on the processing

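At days 70 and 80, in their mean, in their change and in both age steps between them, 0 of the 6 genes passed under every alternative run and with each array left out. At day 150 the count of 1 moved to 0 after quantile normalization (21 genes in all passed). With the replicate block it moved to 2 (31 genes in all), and the block changed no other call. Leaving out each array gave 0 to 1, with 0 without control array 2 (12 genes in all) and without TgCRND8 array 4 (15 genes). Of 1434 recomputed differences of the 6 genes, 1431 moved by less than 1 SD; the 3 others were Tmem176a with the mean of its probe sets (0.21 at day 150, 0.18 for day 150 minus day 80 in TgCRND8 mice, 0.20 for the day 150 genotype difference minus the early mean). Of 72 differences, 29 changed sign under at least 1 alternative; the day 150 differences of Tmem176a and Tmem176b did not. Of the nearest genes, 2 of 18 were the same by deviations from group means. List genes past the threshold at day 150 numbered 6, and 5 to 7 under the alternatives. The causes were not tested. Leaving out the dimmest 40% kept 10916 genes, of which Tmem176a and Tmem176b were the members tested, so the Ms4a genes have no value there.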
